A study of Mus musculus with 16 samples.

Results

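The acyl-CoA thioesterases of the Acot family were followed through the livers of 16 mice by poly(A) RNA sequencing. The members are the 10 genes Acot1, Acot2, Acot3, Acot4, Acot5, Acot6, Acot8, Acot9, Acot12 and Acot13, chosen by name and matched by Ensembl ID, out of 55416 genes listed in the count files. Acot7 and Acot11, which are Acot genes too, are not among the members and are counted further below with other thioesterases. All mice were wild-type C57BL/6J, 8 weeks old, and all had received an adenovirus through the tail vein, so no liver here is without virus. Ad-CTRL is the control virus, and Ad-FAT10 makes the infected liver overexpress FAT10, a ubiquitin-like protein encoded by Ubd. The labels do not name the promoter of the transgene or the cells it reaches. At 4 days after the virus, mice were gavaged with the vehicle CMC or with pemafibrate (Pema), an agonist of the nuclear receptor PPARα, at 1 mpk. Both were given 18 h and 5 h before liver removal, after a fast of 5 h. There were 4 mice in each of 4 groups. Where a sentence lists 4 group values, the order is Ad-CTRL CMC and Ad-CTRL Pema, followed by Ad-FAT10 CMC and Ad-FAT10 Pema.

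Acyl-CoA thioesterases cut the thioester bond of an acyl-CoA and release a free fatty acid and coenzyme A. They work against the acyl-CoA synthetases, which make the same bond, and they act in the compartments where acyl-CoAs are used: the cytosol (Acot1, Acot12), the mitochondrial matrix or its surface (Acot2, Acot9, Acot13) and the peroxisome (Acot3, Acot4, Acot5, Acot6, Acot8). In rodent liver several of these genes are known as targets of PPARα, which binds DNA as a dimer with RXR at repeats of the hexamer AGGTCA. Acot1 to Acot6 belong to one sequence family (type I), and Acot8, Acot9, Acot12 and Acot13 to others (type II).

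In the GENCODE M21 annotation Acot1 to Acot6 lie side by side on the plus strand of chromosome 12 within 123.5 kb, in the order Acot2, Acot1, Acot4, Acot3, Acot5, Acot6. Acot8 is on chromosome 2, Acot9 on chromosome X, and Acot12 and Acot13 are both on chromosome 13. The 250 bases before the annotated start are printed for the 4 clustered genes with the highest levels under pemafibrate and for Acot12, whose window held the closest match to the PPARα motif. They are from RefSeq on GRCm38.p6, and all 5 genes are on the plus strand. Each is read 5′ to 3′ and ends at the base before the start. Capitals mark the half-site AGGTCA or its reverse complement TGACCT.
Acot2, chr12:83987611-83987860: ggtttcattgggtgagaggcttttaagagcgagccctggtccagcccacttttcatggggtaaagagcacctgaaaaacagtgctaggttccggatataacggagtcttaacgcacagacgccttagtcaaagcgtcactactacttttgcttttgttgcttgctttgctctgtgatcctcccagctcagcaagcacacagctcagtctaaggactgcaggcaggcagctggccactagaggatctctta
Acot1, chr12:84009252-84009501: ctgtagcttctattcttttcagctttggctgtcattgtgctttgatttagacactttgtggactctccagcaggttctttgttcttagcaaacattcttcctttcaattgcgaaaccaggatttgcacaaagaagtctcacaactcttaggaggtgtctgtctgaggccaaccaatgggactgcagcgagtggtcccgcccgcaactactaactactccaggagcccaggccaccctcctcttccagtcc
Acot4, chr12:84038129-84038378: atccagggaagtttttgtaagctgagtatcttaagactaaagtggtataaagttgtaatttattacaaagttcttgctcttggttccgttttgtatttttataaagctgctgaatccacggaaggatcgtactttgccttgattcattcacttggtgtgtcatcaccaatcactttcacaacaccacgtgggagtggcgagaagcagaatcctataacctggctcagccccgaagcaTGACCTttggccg
Acot3, chr12:84051894-84052143: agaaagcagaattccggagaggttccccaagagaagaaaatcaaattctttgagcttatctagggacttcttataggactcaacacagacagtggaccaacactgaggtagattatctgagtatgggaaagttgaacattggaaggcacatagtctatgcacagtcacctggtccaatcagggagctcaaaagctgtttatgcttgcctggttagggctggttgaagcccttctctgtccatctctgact
Acot12, chr13:91741271-91741520: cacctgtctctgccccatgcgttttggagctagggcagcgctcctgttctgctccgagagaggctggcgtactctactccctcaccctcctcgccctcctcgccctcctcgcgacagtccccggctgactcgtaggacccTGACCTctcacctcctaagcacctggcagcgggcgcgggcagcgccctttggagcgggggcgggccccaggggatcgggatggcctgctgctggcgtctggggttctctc

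A half-site stood in 3 of the 8 member windows that could be matched (those of Acot4, Acot5 and Acot12), against 13.8% of all 27025 windows of the same length. In Acot4 it ends 8 bases before the start on the minus strand, and in Acot12 it begins 110 bases before the start. The direct repeat AGGTCANAGGTCA was searched on both strands over its 12 fixed letters. The best match in Acot12 (tgacctctcacct) had 1 mismatch, a score reached by 0.466% of windows, and that in Acot4 (tgacctttggccg) had 2, reached by 3.18%. Acot2 and Acot5 came within 3 mismatches, as 21% of windows do, and Acot1, Acot3, Acot8 and Acot9 had 4 or more. These are letter matches in a short window, and no binding was measured.

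Between 18663498 and 28898229 counts were deposited per library, and 14770 genes, all 10 members among them, had enough counts to be tested. Levels are CPM (counts scaled to library size) after TMM scaling, as mean ± SD over 4 livers, and changes are log2 ratios ± SE from edgeR's quasi-likelihood test, with a call made where the p, adjusted by Benjamini-Hochberg across the whole table, was under 0.05. Ubd averaged 11.2, 27.5, 237 and 460 CPM in the 4 groups, so the Ad-FAT10 livers bore out their label, with log2 changes of 4.41 ± 0.39 under CMC and 4.06 ± 0.38 under Pema (adjusted p = 4.8e-07 and 8.1e-07). The hepatocyte markers were the most abundant marker set in every group, as the label liver calls for, and none of the 8 was at 0.

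Pemafibrate raised the transcripts of 8 of the 10 members in Ad-CTRL livers and 8 in Ad-FAT10 livers, and lowered none of them. Outside the members, Acot7 rose in both viruses (0.39 ± 0.11 and 0.60 ± 0.11) and Acot11 fell in both (-1.03 ± 0.26 and -1.35 ± 0.26). Acot1 in the cytosol, Acot2 in the mitochondrion and Acot3 in the peroxisome rose most among members with counts in every group, between 19.9-fold and 108-fold in Ad-CTRL livers. Acot4, Acot8, Acot12 and Acot6 rose by smaller factors, Acot5 appeared from no counts, and Acot9 and Acot13 were not called. Of all genes tested, 16.2% were called higher and 14.4% lower with pemafibrate in Ad-CTRL livers, and 12.9% and 12.5% in Ad-FAT10 livers. The median log2 change over the 10 members, Acot5 included, was 2.36 and 2.22, beside -0.01 and -0.01 over all genes. DESeq2 gave the same 8 higher and 0 lower in each virus, and no member was lower at an unadjusted p under 0.05. Of the 8 hepatocyte markers, 4 (Ad-CTRL) and 5 (Ad-FAT10) were lower with pemafibrate and none was higher. All 6 neutrophil markers tested were lower with pemafibrate in Ad-FAT10 livers (median log2 change -1.79), and none was called in Ad-CTRL livers (median -0.42). No marker of the other cell types was called with pemafibrate in either virus. Their part in these results was not tested. In whole liver, fewer cells of a type and less RNA per cell cannot be told apart.

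**Figure D1:**
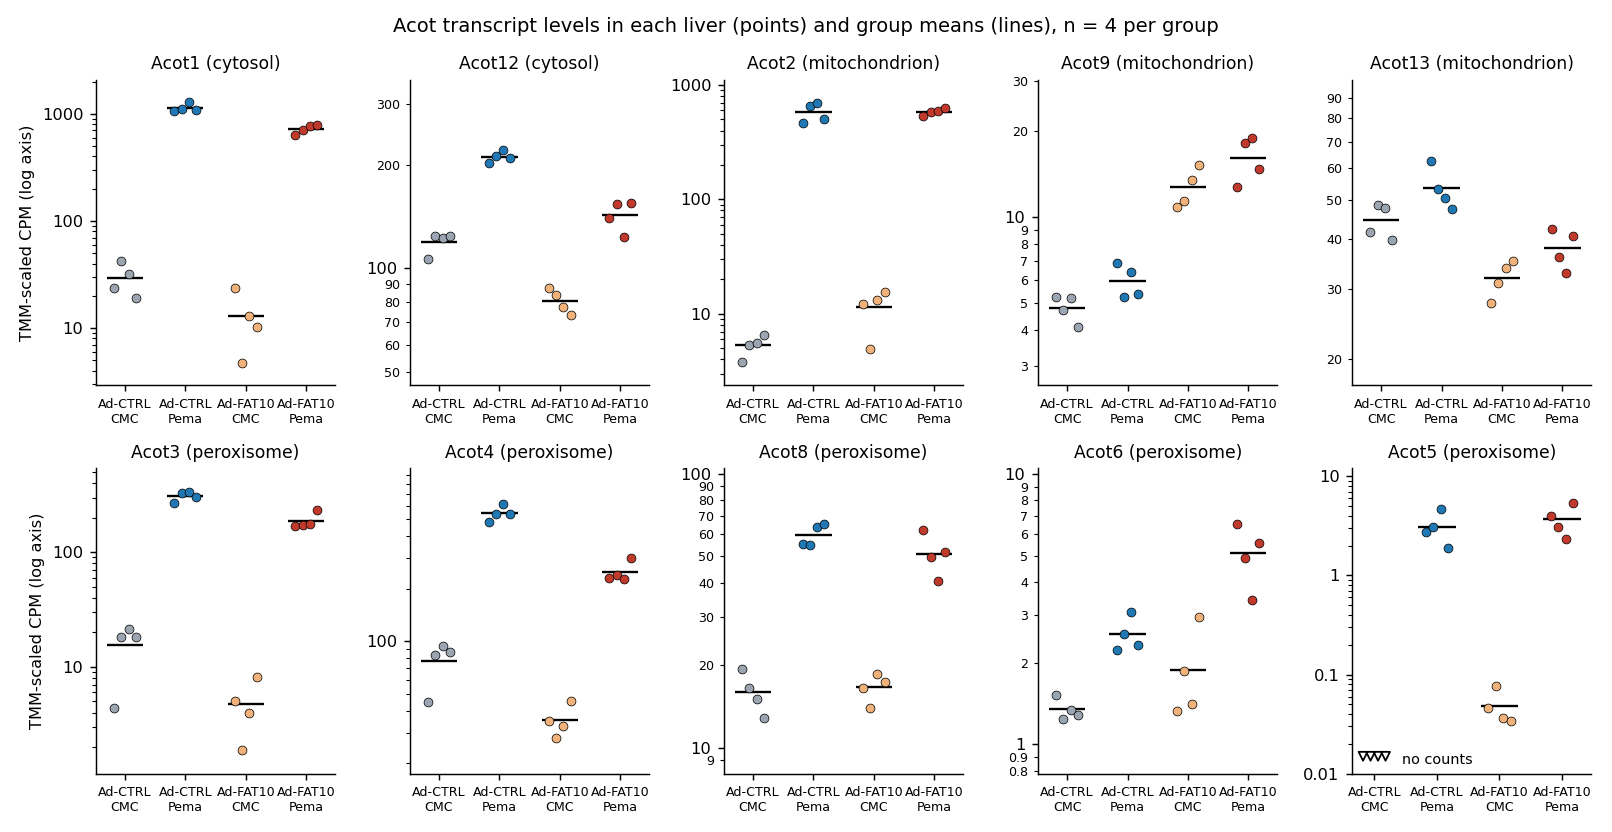
TMM-scaled CPM (log axis, a different range in each panel) of each Acot gene in each liver, with points for single livers and lines for the means of 4 livers. The Pema points of Acot1, Acot2, Acot3 and Acot4 lie far above the CMC points in both viruses, while Acot9 separates Ad-FAT10 from Ad-CTRL livers; triangles mark the 4 Ad-CTRL CMC livers in which Acot5 had no counts.

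Acot1 (ENSMUSG00000072949), the cytosolic enzyme of long-chain acyl-CoAs, stood at 23.9, 42.3, 31.9 and 19.2 CPM in the 4 Ad-CTRL CMC livers and at 1069.8, 1108, 1299 and 1092 CPM in the 4 Ad-CTRL Pema livers. In Ad-FAT10 livers it stood at 23.8, 4.70, 13.04 and 10.1 CPM under CMC and at 635, 709, 770.3 and 786 CPM under Pema. Every treated liver was therefore more than 10 times above every vehicle liver of its virus, with the lowest Pema value in Ad-FAT10 still above the highest CMC value in either virus. The rise was 5.28 ± 0.36 in Ad-CTRL livers (38.9-fold, adjusted p = 5.52e-09) and 5.82 ± 0.38 in Ad-FAT10 livers (56.5-fold, adjusted p = 3.5e-09).

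Acot12 (ENSMUSG00000021620), a cytosolic enzyme that hydrolyses acetyl-CoA, was already abundant under vehicle and rose by less than 2-fold. Its CPM were 106, 124, 123 and 124 in Ad-CTRL CMC and 202, 212, 220.5 and 209 in Ad-CTRL Pema livers. They were 87.8, 83.4, 77.2 and 73.3 in Ad-FAT10 CMC and 139.9, 153, 124 and 155 in Ad-FAT10 Pema livers. The treated and vehicle livers of a virus did not overlap, and the replicates were close together. The log2 rises were 0.82 ± 0.09 and 0.83 ± 0.09 (adjusted p = 1.73e-06 and 2.49e-06).

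Acot2 (ENSMUSG00000021226), the mitochondrial matrix enzyme of long-chain acyl-CoAs, is the neighbour of Acot1 in the cluster. It went from near the bottom of the members to near their top. Under CMC it had 3.81, 5.36, 5.55 and 6.58 CPM in Ad-CTRL and 12.3, 4.89, 13.3 and 15.6 CPM in Ad-FAT10 livers. Under Pema it had 462, 653, 695 and 509 CPM in Ad-CTRL and 531, 579, 598 and 627 CPM in Ad-FAT10 livers. The treated values of the 2 viruses overlapped, whereas 3 of the 4 Ad-FAT10 CMC livers lay above all Ad-CTRL CMC livers. The rise was 6.76 ± 0.30 in Ad-CTRL livers (108-fold, adjusted p = 5.45e-11), ranking 9 among the 14770 genes ordered from the most raised, and 5.66 ± 0.28 in Ad-FAT10 livers (50.7-fold, adjusted p = 2.8e-10), ranking 13.

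The other mitochondrial members were not called with pemafibrate. Acot13 (ENSMUSG00000006717), a small enzyme on the mitochondrial surface, had 41.6, 48.6, 47.9 and 39.8 CPM in Ad-CTRL CMC and 62.4, 53.2, 50.6 and 47.5 CPM in Ad-CTRL Pema livers, groups that overlap. Its log2 differences were 0.26 ± 0.11 (adjusted p = 0.0762) and 0.25 ± 0.11 in Ad-FAT10 livers (adjusted p = 0.111). Acot9 (ENSMUSG00000025287), a matrix enzyme of broad chain length, had 5.22, 4.71, 5.18 and 4.12 CPM in Ad-CTRL CMC and 6.90, 5.24, 6.38 and 5.38 CPM in Ad-CTRL Pema livers. These groups just failed to overlap, yet the difference of 0.31 ± 0.16 was not called (adjusted p = 0.151). In Ad-FAT10 livers the difference was 0.34 ± 0.14 (adjusted p = 0.0861). There it was called at 0.44 without Ad-FAT10 CMC replicate 4 (adjusted p = 0.036) or without Ad-FAT10 Pema replicate 1 (adjusted p = 0.0248). These were 2 of 22 alternatives, and the rest left it uncalled, with adjusted p up to 0.225.

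Among the peroxisomal members Acot3 and Acot4 rose from different starting levels. Acot3 (ENSMUSG00000021228), the long-chain enzyme, had 4.34, 18.1, 21.4 and 18.3 CPM in Ad-CTRL CMC and 271, 330.2, 336 and 302 CPM in Ad-CTRL Pema livers. Ad-FAT10 livers had 5.09, 1.87, 3.94 and 8.14 CPM under CMC and 168, 174, 177 and 234 CPM under Pema. Treated and vehicle livers were wholly apart, and 1 Ad-CTRL CMC liver (replicate 1) lay within the Ad-FAT10 CMC range. The rises were 4.31 ± 0.38 (19.9-fold, adjusted p = 1.22e-07) and 5.30 ± 0.41 (39.3-fold, adjusted p = 3.23e-08).

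Acot4 (ENSMUSG00000052392), the peroxisomal succinyl-CoA and dicarboxylyl-CoA thioesterase, had 45.1, 83.7, 94.6 and 86.7 CPM in Ad-CTRL CMC and 486, 534, 612 and 538 CPM in Ad-CTRL Pema livers. In Ad-FAT10 livers it had 34.8, 27.9, 32.7 and 45.7 CPM under CMC and 229.9, 239, 229 and 299.7 CPM under Pema. As in Acot3, the low Ad-CTRL CMC value and the high Ad-FAT10 Pema value came from replicates 1 and 4 of those groups. The rise was 6.99-fold and 7.07-fold, at 2.81 ± 0.20 (adjusted p = 6.91e-09) and 2.82 ± 0.20 (adjusted p = 9.38e-09).

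Acot8 (ENSMUSG00000017307), the peroxisomal type II enzyme that hydrolyses a broad range of acyl-CoAs and bile acid-CoAs, rose 3.76-fold and 3.07-fold. Its CPM were 19.4, 16.5, 15.1 and 12.9 in Ad-CTRL CMC and 55.4, 54.9, 63.9 and 65.3 in Ad-CTRL Pema livers. In Ad-FAT10 livers they were 16.5, 14.0, 18.6 and 17.3 under CMC and 62.1, 49.7, 40.7 and 51.9 under Pema. The treated livers lay above all vehicle livers, whichever the virus. The log2 rises were 1.91 ± 0.14 and 1.62 ± 0.13 (adjusted p = 9.38e-09 and 8.37e-08).

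Acot6 and Acot5 were the rare members. Acot6 (ENSMUSG00000043487), a peroxisomal enzyme of branched acyl-CoAs, had 1.53, 1.25, 1.34 and 1.29 CPM in Ad-CTRL CMC and 2.23, 2.56, 3.09 and 2.34 CPM in Ad-CTRL Pema livers. In Ad-FAT10 livers it had 1.33, 1.87, 1.41 and 2.95 CPM under CMC and 6.56, 4.88, 3.41 and 5.56 CPM under Pema. No treated liver fell within the range of the vehicle livers of its virus. The rises were 0.92 ± 0.26 (adjusted p = 0.0117) and 1.41 ± 0.23 (adjusted p = 0.000213).

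Acot5 (ENSMUSG00000042540), a peroxisomal medium-chain enzyme, had no count in any Ad-CTRL CMC liver and 1 or 2 counts in each Ad-FAT10 CMC liver. Under Pema it had 53, 58, 93 and 43 counts in Ad-CTRL livers (2.75, 3.10, 4.64 and 1.90 CPM) and 103, 81, 79 and 165 counts in Ad-FAT10 livers (3.98, 3.09, 2.34 and 5.37 CPM). It therefore passed the filter on low counts only through the treated livers, and its presence among the raised members is no support for the count of 8. Set against a floor of 3 counts per library (0.152 CPM on average), Acot5 was at least 20.4-fold higher in Ad-CTRL Pema than in Ad-CTRL CMC livers. In Ad-FAT10 livers the ratio was 76.9, with an exact 95% interval of 32.7 to 238 that covers counting error only, from 428 counts against 5 (adjusted p = 2.08e-07). With Acot5 at its bound the median log2 change of the members in Ad-CTRL livers stayed 2.36.

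**Figure D2:**
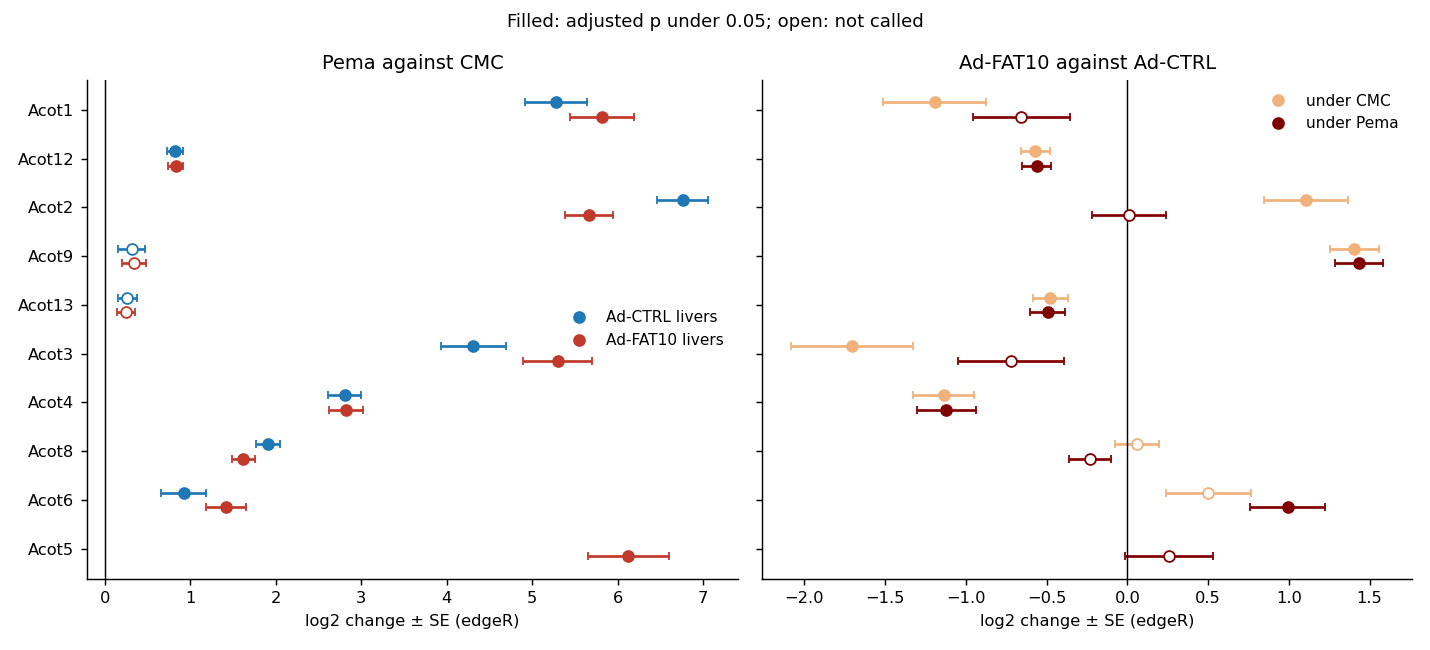
Log2 change ± SE of each member for Pema against CMC (left, by virus) and Ad-FAT10 against Ad-CTRL (right, by treatment), with filled points for an adjusted p under 0.05 and open points for the rest. The left panel spans from 0.25 for Acot13 to 6.76 for Acot2, with all points above 0, while the right panel has points on both sides of 0; Acot5 is left out where the Ad-CTRL CMC livers, with no counts, enter the comparison.

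Ad-FAT10 changed the members in both directions. Under CMC, Acot9 and Acot2 were higher in Ad-FAT10 than in Ad-CTRL livers, and Acot1, Acot3, Acot4, Acot12 and Acot13 were lower. Under Pema, Acot9 and Acot6 were higher and Acot4, Acot12 and Acot13 were lower. That is 2 higher and 5 lower of 10 under CMC and 2 higher and 3 lower of 10 under Pema, with the same numbers from DESeq2. Among all genes 22.5% were called higher and 20.2% lower under CMC, and 21.2% and 20.5% under Pema, so the 2 members raised in each are near the background share. The median over the members was -0.21 and -0.36, beside -0.01 and -0.02 over all genes.

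Scaling matters for this contrast. With library totals alone, the median of all genes moved up by 0.29 under CMC and by 0.36 under Pema, and the share of calls that were higher went from 52.7% to 85.7% and from 50.9% to 89.7%. Among the members the tally became 4 higher and 4 lower under CMC, with Acot6 and Acot8 now called higher and Acot13 no longer called, and 2 higher and 2 lower under Pema, where Acot13 lost its call. Without the filter on low counts, or with only the groups compared in the fit, the tally under Pema was 2 higher and 5 lower. Among all genes these settings gave 5742 calls, 56.0% of them higher, and 5666 calls, 52.4% of them higher. For pemafibrate in Ad-CTRL livers the share of calls that were higher went from 52.8% to 39.5% with library totals. The values below are TMM-scaled.

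Cell type markers also moved with Ad-FAT10. Of 8 hepatocyte markers, 4 were lower under CMC and 7 under Pema, and their summed CPM ran from 80474 to 107413, 69003 to 95408, 57237 to 68501 and 41668 to 63153 in the 4 groups. Kupffer cell and macrophage markers were divided, with 3 higher and 4 lower of 8 in each treatment. Of 5 B and plasma cell markers, 4 and 3 were lower (median log2 changes -1.19 and -0.86), and of 6 endothelial markers 3 were lower in each. Stellate and fibroblast markers had 3 lower of 6 under CMC, and 2 higher and 2 lower under Pema. Of 5 cholangiocyte markers 2 were higher under CMC and none was called under Pema. All 6 T and NK cell markers were higher in both treatments, with sums of 12.1 to 26.3, 12.6 to 20.3, 37.1 to 51.3 and 30.3 to 70.8 CPM. Of 6 neutrophil markers tested, 6 and 5 were higher, with sums of 7.82 to 16.1, 6.19 to 9.78, 37.8 to 114 and 17.7 to 25.7 CPM over the 7 listed. No marker of these sets was at 3 counts or fewer in all libraries. Counts in mitochondrially encoded genes were 7.28% ± 1.20, 6.23% ± 0.781, 5.15% ± 0.503 and 4.46% ± 1.16 of a library. The part of these shifts in the differences between the viruses was not tested.

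In the cytosol both members were lower in Ad-FAT10 livers under CMC. Acot1 averaged 29.3 ± 10.1 CPM in Ad-CTRL CMC and 12.9 ± 8.02 CPM in Ad-FAT10 CMC livers, a difference of -1.19 ± 0.32 (adjusted p = 0.00622), although Ad-FAT10 CMC replicate 1 lay inside the Ad-CTRL range. Under Pema it averaged 1142 ± 106 and 725 ± 68.3 CPM, groups that do not overlap, and the difference of -0.66 ± 0.30 was not called (adjusted p = 0.0905). It was called when only these groups entered the fit (-0.64, adjusted p = 0.00174), without the filter on low counts (-0.62, adjusted p = 0.0195), and without Ad-FAT10 CMC replicate 1 or replicate 2 (adjusted p = 0.0347 and 0.0331). These were 4 of 22 alternatives, and the rest left it uncalled, with adjusted p up to 0.438. Acot12 fell by 0.57 ± 0.09 under CMC and by 0.56 ± 0.09 under Pema on the log2 scale (adjusted p = 9.94e-05 and 0.000112), with no overlap of the livers in either treatment. With library totals alone these differences kept their calls at -0.28 (adjusted p = 0.00804) and -0.20 (adjusted p = 0.0456).

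In the mitochondrion the members went different ways. Acot9 was higher in Ad-FAT10 livers, at 10.8, 11.3, 13.5 and 15.2 CPM under CMC and 12.7, 18.1, 18.9 and 14.7 CPM under Pema, above each of the 8 Ad-CTRL livers. Its log2 rises were 1.41 ± 0.15 and 1.43 ± 0.15 (2.65-fold and 2.7-fold, adjusted p = 2.61e-06 and 2.82e-06). It was the only member raised by Ad-FAT10 in both treatments and, with Acot13, one of the members not called with pemafibrate. Acot2 averaged 5.33 ± 1.14 and 11.5 ± 4.61 CPM under CMC, a rise of 1.11 ± 0.26 (adjusted p = 0.0024) in which Ad-FAT10 CMC replicate 2, at 4.89 CPM, fell within the Ad-CTRL range. Under Pema the means were 579.7 ± 112 and 584 ± 40.5 CPM, a difference of 0.01 ± 0.23 (adjusted p = 0.978).

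Acot13 averaged 44.5 ± 4.43 CPM in Ad-CTRL CMC and 31.9 ± 3.41 CPM in Ad-FAT10 CMC livers, and 53.4 ± 6.43 and 38.0 ± 4.31 CPM under Pema. It fell by 0.48 ± 0.11 and by 0.49 ± 0.11 on the log2 scale (adjusted p = 0.00213 and 0.00155), with no overlap in either treatment. With library totals alone these differences were -0.18 (adjusted p = 0.225) and -0.14 (adjusted p = 0.348), so the call rests on the scaling.

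In the peroxisome Acot4 was the member lowered in both treatments. It fell by 1.14 ± 0.19 under CMC and by 1.12 ± 0.19 under Pema on the log2 scale (adjusted p = 0.000145 and 0.000149), from 77.5 ± 22.1 to 35.3 ± 7.50 CPM and from 542 ± 52.3 to 249.5 ± 33.8 CPM. The treated groups did not overlap, and the vehicle groups overlapped through the highest Ad-FAT10 and the lowest Ad-CTRL liver. Acot3 fell by 1.71 ± 0.38 under CMC (adjusted p = 0.00156), from 15.5 ± 7.59 to 4.76 ± 2.62 CPM. Under Pema it averaged 310.0 ± 29.7 and 188 ± 30.6 CPM, groups that do not overlap, with a difference of -0.72 ± 0.33 that was not called (adjusted p = 0.0873). That difference was called when only these groups entered the fit (-0.70, adjusted p = 0.00161), without the filter (-0.69, adjusted p = 0.0118) and without Ad-CTRL CMC replicate 1 (adjusted p = 0.0209). These were 3 of 22 alternatives, and the rest left it uncalled, with adjusted p up to 0.385.

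Acot6 was 0.99 ± 0.23 higher in Ad-FAT10 livers under Pema (adjusted p = 0.0024), with 5.10 ± 1.32 against 2.56 ± 0.384 CPM and no overlap. Under CMC its difference was 0.50 ± 0.26 (adjusted p = 0.132), called at 0.80 with library totals alone (adjusted p = 0.0163). Acot8 averaged 15.9 ± 2.72 and 16.6 ± 1.96 CPM under CMC and 59.9 ± 5.48 and 51.1 ± 8.78 CPM under Pema. Its differences were 0.06 ± 0.14 and -0.23 ± 0.13 (adjusted p = 0.741 and 0.161), and neither sign held with every scaling or library. With library totals alone they were 0.36 (adjusted p = 0.0404) and 0.13, and without Ad-FAT10 Pema replicate 1 the second was called at -0.34 (adjusted p = 0.0408). Acot5 was at or under 3 counts in both vehicle groups, so no ratio is given there, and under Pema its difference was 0.26 ± 0.27 (adjusted p = 0.477).

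The interaction asks if pemafibrate changed a gene by a different factor in Ad-FAT10 than in Ad-CTRL livers. No member was called in edgeR or in DESeq2, and 1 member, Acot2, had an unadjusted p under 0.05. Across all genes 0.0271% were called higher and 0.129% lower, 4 and 19 genes. Acot2 rose 108-fold in Ad-CTRL and 50.7-fold in Ad-FAT10 livers, an interaction of -1.10 ± 0.34 (unadjusted p = 0.00508, adjusted p = 0.247). It was called without the filter on low counts (-1.07, adjusted p = 0.0266) and without Ad-FAT10 CMC replicate 2, the liver with the lowest Acot2 of its group (-1.31, adjusted p = 0.0268). These were 2 of 21 alternatives, and the rest left it uncalled, with adjusted p up to 0.473. The levels behind it are a vehicle level 2.16 times as high in Ad-FAT10 livers and treated levels whose ratio was 1.01. Acot3 (0.98 ± 0.50, adjusted p = 0.483) and Acot1 (0.54 ± 0.44, adjusted p = 0.704) had the opposite sign, with lower vehicle levels in Ad-FAT10 livers. Acot4, Acot9, Acot12 and Acot13 had interactions between -0.02 and 0.03, with SE of 0.26, 0.21, 0.13 and 0.15, and each changed sign under at least 1 alternative.

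Between genes, levels are compared as CPM per kilobase of the longest protein-coding transcript. In Ad-CTRL CMC livers Acot13 led at 61.7 ± 6.15 CPM per kilobase, then Acot12 at 39.0 ± 2.80, with no overlap between them. Acot8 (13.8), Acot1 (12.9) and Acot4 (12.5) came next and overlapped, then Acot3 (4.52), Acot9 (2.74) and Acot2 (2.42), which also overlapped, and Acot6 (0.373), with Acot5 at 0. In Ad-CTRL Pema livers the order began with Acot1 at 503 ± 46.6 and Acot2 at 264 ± 51.0. Acot3 (90.4), Acot4 (87.4) and Acot13 (74.1) followed with overlapping ranges, and Acot12 (69.0) overlapped Acot13 too. Acot8 (52.0) came next, and Acot9 (3.41), Acot5 (2.04) and Acot6 (0.706) closed the list.

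Ad-FAT10 CMC livers also began with Acot13 (44.3 ± 4.73) and Acot12 (26.3 ± 2.1), followed by Acot8 (14.4), but Acot9 (7.26) stood above the means of Acot4 (5.69), Acot1 (5.68) and Acot2 (5.24), whose ranges overlap its own. In Ad-FAT10 Pema livers Acot1 (319 ± 30.1) and Acot2 (266 ± 18.4) led, with ranges of 280 to 346 and 242 to 286 that overlap. Acot3 (54.8), Acot13 (52.6), Acot12 (46.7), Acot8 (44.3) and Acot4 (40.2) followed, each overlapping the next, then Acot9 (9.20), Acot5 (2.43) and Acot6 (1.41). Which of Acot1 and Acot2 leads depends on the length used. Acot1 has 2272 bases in its longest coding transcript and 3919 over all its annotated exons, and with the latter the values in Ad-FAT10 Pema livers were 185 for Acot1 and 266 for Acot2, with no overlap. In Ad-CTRL Pema livers they were 291 and 264, with ranges that overlap. That alternative length was added after the data had been seen.

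The whole family summed to 150.0 ± 15.5, 1146 ± 108, 111 ± 8.67 and 837 ± 56.7 CPM per kilobase in the 4 groups. In plain CPM the cytosolic members summed to 149 ± 15.5, 1353 ± 113, 93.3 ± 12.5 and 868 ± 69.5. The mitochondrial members summed to 54.6 ± 4.67, 639 ± 109, 56.2 ± 8.74 and 638 ± 40.3 CPM, with means in the 2 viruses closer together than the SD. That closeness depends on the scaling: with library totals alone the same sums were 50.2 ± 4.78, 552 ± 72.1, 63.5 ± 13 and 712 ± 58.4 CPM, with higher means in Ad-FAT10 livers. The peroxisomal members summed to 110.3 ± 27.4, 918 ± 83.0, 58.6 ± 11.7 and 497 ± 66.3 CPM. Because the members were chosen with earlier results known, these sums have no p.

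**Figure D3:**
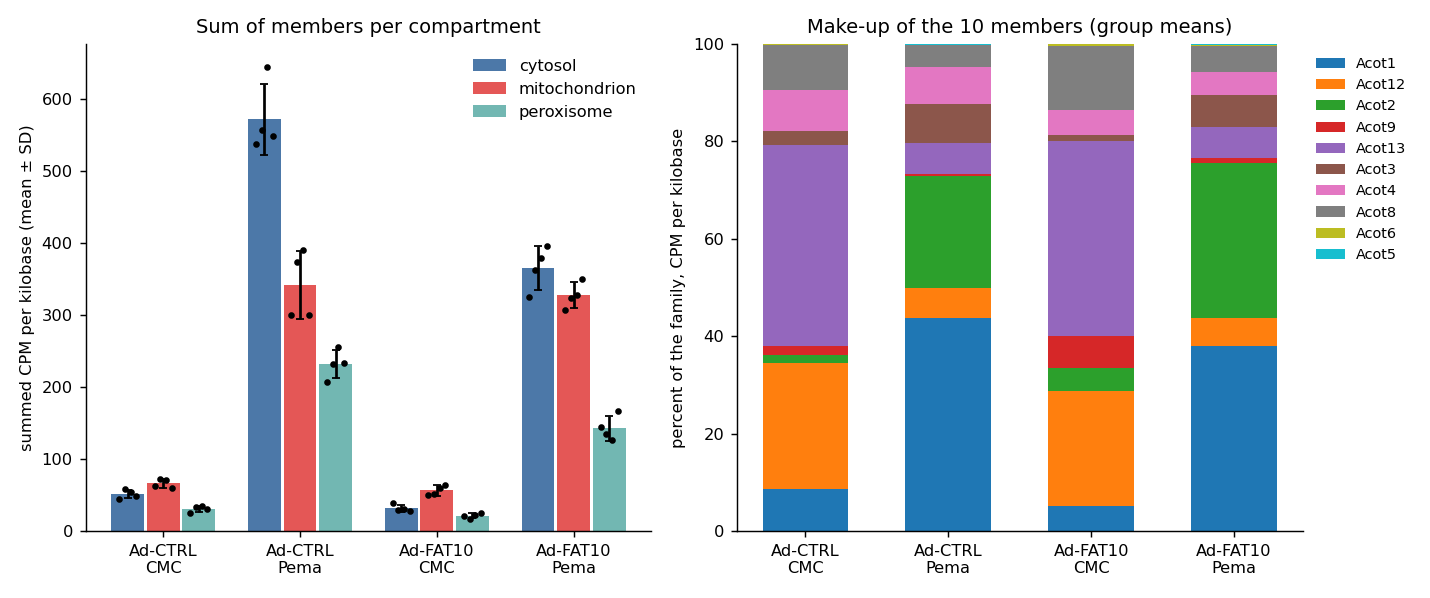
The left panel has the summed CPM per kilobase of the members of each compartment (bars, mean ± SD of 4 livers, with points for single livers). The right panel has the percent of the total of all members per kilobase held by each, from group means. Acot13 and Acot12 fill most of the CMC bars on the right, and Acot1 and Acot2 fill most of the Pema bars in both viruses.

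In the cytosol and the mitochondrion the member that held most of the sum was another one under pemafibrate than under vehicle. Acot12 held 75.5% ± 5.88 of the cytosolic sum per kilobase in Ad-CTRL CMC and 12.1% ± 0.606 in Ad-CTRL Pema livers, the rest being Acot1, which held 87.9%. Acot13 held 92.2% ± 0.749 of the mitochondrial sum in Ad-CTRL CMC and 22.1% ± 4.74 in Ad-CTRL Pema livers, while Acot2 went from 3.65% ± 0.921 to 76.9% ± 4.94. In Ad-FAT10 livers Acot13 went from 78.2% to 16.1% and Acot2 from 9.09% to 81.1%, and Acot9 held 12.7% ± 0.487 under CMC, against 4.12% ± 0.469 in Ad-CTRL CMC livers. With the longest coding transcript as length, the largest mean share in the peroxisome passed from Acot8 under CMC to Acot3 under Pema. Acot8 held 45.4% ± 13.5, Acot4 39.4% ± 7.73 and Acot3 13.9% ± 6.08 of its sum in Ad-CTRL CMC livers, and 22.4%, 37.6% and 38.8% in Ad-CTRL Pema livers. In Ad-FAT10 CMC livers Acot8 alone held 65.8% (58.7% to 70.3% in single livers), Acot4 25.7% and Acot3 6.03%, and under Pema they held 31.0%, 28.1% and 38.2%. Acot8 and Acot4 overlapped in Ad-CTRL CMC and Acot4 and Acot3 in Ad-CTRL Pema livers, while in Ad-FAT10 Pema livers Acot8 overlapped both. The lead of Acot8 in Ad-CTRL CMC livers depends on the length used. Per kilobase of all annotated exons Acot4 averaged 11.6 and Acot8 7.98 CPM there, against 5.28 and 8.31 in Ad-FAT10 CMC livers.

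Neighbouring genes of the cluster did not keep a fixed ratio. Per Acot1 count there were 0.201 ± 0.0965, 0.506 ± 0.0706, 1.03 ± 0.416 and 0.807 ± 0.0253 Acot2 counts in the 4 groups. The ratio lay between 0.127 and 0.590 in the 8 Ad-CTRL livers and between 0.517 and 1.54 in the 8 Ad-FAT10 livers, ranges that overlap at their edges. Per Acot4 count there were 0.187 ± 0.0609, 0.572 ± 0.0316, 0.128 ± 0.0470 and 0.752 ± 0.0285 Acot3 counts. Here the treatments separated the livers, and the treated livers of the 2 viruses did not overlap, at 0.549 to 0.619 and 0.725 to 0.779.

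**Figure D4:**
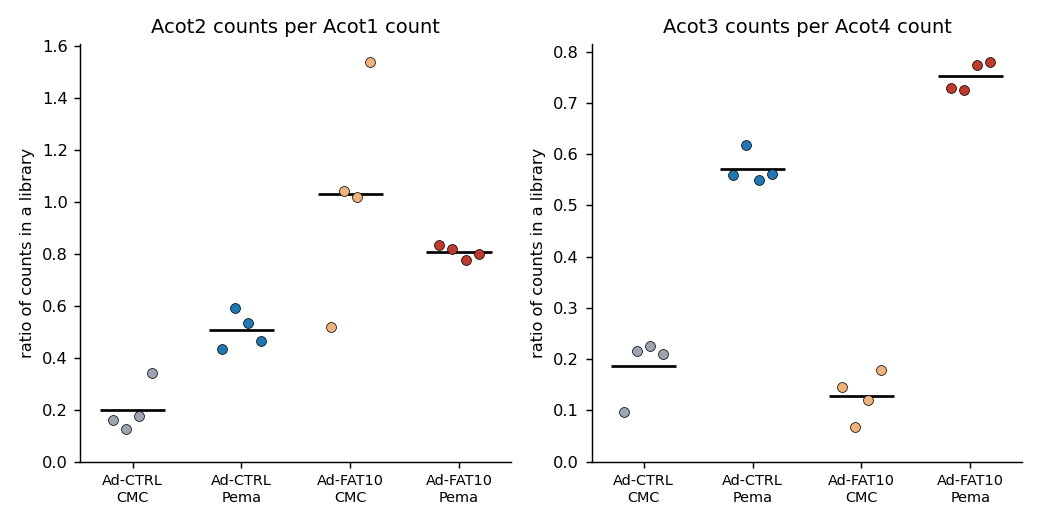
Ratio of counts of neighbouring genes in each liver (points; lines, means of 4 livers), Acot2 per Acot1 on the left and Acot3 per Acot4 on the right. The left ratio is spread widest in Ad-FAT10 CMC livers, from 0.517 to 1.54, and the right ratio is at most 0.226 in the CMC livers and at least 0.549 in the Pema livers.

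Within groups, Acot2, Acot3 and Acot4 were high or low in the same livers, and the other genes of the cluster less so. The deviations of log2 CPM from the group means had a Pearson r of 0.95 between Acot3 and Acot4, 0.80 between Acot2 and Acot3, 0.69 between Acot2 and Acot4 and 0.59 between Acot1 and Acot2 over the 16 livers. For the other pairs of clustered genes r lay between -0.35 (Acot1 and Acot6) and 0.47 (Acot1 and Acot3), with 0.31 between Acot1 and Acot4. These are descriptions over libraries that share depth and RNA, with no test.

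Shared sequence limits how far these genes can be separated. Of the stretches of 50 bases in the coding transcripts of GENCODE M21, 31.8% of those of Acot1, 27.6% of Acot2, 22.1% of Acot5, 7.57% of Acot3, 4.36% of Acot4 and 3.52% of Acot6 also occur in another member, and none of those of Acot8, Acot9, Acot12 and Acot13. At 100 bases the shares were 21.6% for Acot1, 17.1% for Acot2 and 7.79% for Acot5. The labels do not say how reads that match several genes were counted, and the split between Acot1 and Acot2 and the low level of Acot5 are uncertain to that extent.

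Overlapping genes were also looked at, since the strand setting of the counting is not given. 4732463B04Rik, annotated antisense to Acot3 and Acot4, had 21 to 54 counts in the vehicle livers and 155 to 241 in the treated ones, rises of 2.46 ± 0.24 with the control virus and 2.50 ± 0.25 with Ad-FAT10 (adjusted p = 4.97e-07 and 7.74e-07). By group mean CPM, Acot4 stood 42.8, 54.3, 29.9 and 36.9 times as high as this gene in the 4 groups. Acot3 stood 31.0 and 27.8 times as high in the treated groups but 8.56 and 4.04 times as high in the Ad-CTRL and Ad-FAT10 vehicle groups, so the vehicle levels of Acot3 are the more uncertain. Gm49366, which overlaps Acot3 and Acot4 on their own strand, had no count in any library. Snx21, on the other strand at Acot8, fell by 0.69 ± 0.12 and 0.35 ± 0.12 on the log2 scale with pemafibrate (adjusted p = 0.000264 and 0.0398), while Acot8 rose.

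Other genes that make, move or use acyl-CoAs were counted by list, with no test of a list. Of all genes, 16.2% were called higher and 14.4% lower with pemafibrate in Ad-CTRL livers, and 12.9% and 12.5% in Ad-FAT10 livers. Of 11 other thioesterases and N-acyltransferases tested, 4 rose and 4 fell with pemafibrate in Ad-CTRL livers, and 2 rose and 1 fell in Ad-FAT10 livers, with medians of 0.05 and -0.09. Those that rose in Ad-CTRL livers were Acnat2 (1.09 ± 0.28), Them4 (0.59 ± 0.12), Acot7 (0.39 ± 0.11) and Hibch (0.35 ± 0.12). Those that fell were Acot11 (-1.03 ± 0.26), Ppt2 (-0.51 ± 0.12), Them6 (-0.75 ± 0.21) and Baat (-0.34 ± 0.11), the last of which joins bile acids to taurine or glycine. Acot7 and Them4 rose and Acot11 fell in Ad-FAT10 livers too, by 0.60 ± 0.11, 0.37 ± 0.12 and 1.35 ± 0.26 in size. Baat and Them6 were named after their values were seen.

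Acyl-CoA synthetases, which run the opposite reaction, also rose: 11 of 19 tested were higher and 2 lower in Ad-CTRL livers, and 10 and 3 in Ad-FAT10 livers. Slc27a1 (3.46 ± 0.19), Acsl1 (2.20 ± 0.18), Acss3 (2.08 ± 0.27) and Acsl5 (1.31 ± 0.14) led in Ad-CTRL livers. Acsm1 and Acsm5 fell in both viruses and Slc27a5 in Ad-FAT10 livers. Of 12 carnitine acyltransferases and acyl-CoA carriers, 9 and 7 rose and none fell, among them the acetyl-transferase Crat (3.20 ± 0.14), the carrier Slc25a20 (1.50 ± 0.11) and the acyl-CoA binding protein Dbi (1.16 ± 0.11). Of 16 peroxisomal chain-shortening genes 10 and 12 rose and 3 and 2 fell (Acox3 and Nudt7 in both, Pecr in Ad-CTRL), and of 15 mitochondrial beta-oxidation genes 14 rose in each virus. All 12 of the well known PPARα targets rose in each, with medians of 2.81 and 2.56.

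Of all genes, 22.5% were called higher and 20.2% lower with Ad-FAT10 under CMC, and 21.2% and 20.5% under Pema. With library totals alone the median of all genes moved up by 0.29 and 0.36, and the fall of Acadm under CMC (-0.27 ± 0.10) did not hold. Acadm is not the only called fall of about that size. Others were Acadl (-0.30 ± 0.12) and Cpt2 (-0.35 ± 0.11) under CMC and Hadhb (-0.28 ± 0.10) under Pema. The tallies below are given with TMM scaling only, and falls this small may depend on it. In TMM-scaled values under CMC, each of the lists above held more lower than higher calls. The other thioesterases and the PPARα targets were nearest the shares of all genes. The other thioesterases had 3 higher and 4 lower, the synthetases 2 higher and 8 lower, the carnitine list 1 and 6, the peroxisomal list 0 and 10, the mitochondrial list 0 and 12 and the PPARα targets 2 and 4. The higher ones were Them6, Acnat2 and Ppt1, then Acsl4 and Acss1, then Acbd3, then Pdk4 and Cd36. Acsl1 (-1.03 ± 0.17), Slc27a5 (-0.92 ± 0.15), Dbi (-0.80 ± 0.10), Decr2 (-0.70 ± 0.09), Eci1 (-0.84 ± 0.10) and Fabp1 (-1.14 ± 0.16) fell, while the lysosomal thioesterase Ppt1 (0.84 ± 0.13) and the pyruvate dehydrogenase kinase Pdk4 (1.20 ± 0.28) rose. Under Pema the same lists in the same order had 2 higher and 2 lower for the other thioesterases, then 2 and 11, 1 and 8, 0 and 10, 0 and 10, and 0 and 5. The higher ones were Them6 and Ppt1, Acss1 and Acsbg1, and Acbd3, and the lower PPARα targets included Pdk4, Cyp4a10, Vnn1 and Fabp1. Acss1, Acss3, Acsbg1, Acbd3, Acsm5, Acox3, Pecr, Nudt7 and Cyp4a10 are named here after their values were seen. Pdk4 was also the 1 gene of these lists called in the interaction, at -1.86 ± 0.36 (adjusted p = 0.0492).

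The genes whose log2 CPM followed each member most closely over the 16 libraries were named by Pearson r, as a description. Acot1 was closest to Hsdl2 and Acaa1b (both 0.991), Acot2 to Pdk4 (0.993), Acot3 to Aldh3a2 (0.987) and Acot4 (0.983), Acot4 to Pctp (0.989), and Acot8 to Dgkh (0.990). Acot12 was closest to Fcgrt (0.991) and Acot5 to Aifm2 (0.985). The best values were lower for Acot9 (Hnrnpa1, 0.971), Acot13 (the ATP synthase gene Atp5g1, 0.956) and Acot6 (Hmgb3, 0.939).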

How the data were processed

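Livers of 16 mice were sequenced as poly(A), strand-marked libraries on DNBSEQ, per the labels' protocols. The authors deposited raw counts per Ensembl gene for each library. The genome build GRCm39, the aligner STAR 2.7.6 and DESeq2 (versions 1.36.0 and 2.11.40.6) are named in the submitters' processing notes. Not given in the sources used here are the counter, its annotation and its strand setting. Groups came from the sample titles, 4 mice each. No replicate pair held identical values, and the smallest chi-square per gene between replicates was 14.52. Symbols matched 52083 of 55416 IDs. The 3333 unmatched IDs held 0.0988% of counts.

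In R 4.3.3, edgeR 4.0.16 kept 14770 genes by filterByExpr, scaled by TMM and fitted all 16 libraries at once (12 residual degrees of freedom, common BCV 0.151). There were 5 comparisons per gene. SE is the absolute log2 change over the square root of F, so it restates the test. Tested on simulated counts for pemafibrate in Ad-CTRL livers (14494 genes), the fit recovered 74% of 100 genes changed by 1 log2 unit and 97% of 100 changed by 2, with 6.04% of calls false. In the real comparison a far larger share of genes was called (16.2% higher and 14.4% lower), so these figures need not hold there. A count of 3 is worth 0.0890 to 0.176 TMM-scaled CPM. Lengths, names and neighbours came from GENCODE M21 (GRCm38), another build than the counts, and promoters from RefSeq. DESeq2 1.42.0, RLE scaling, library totals, no filter, fits of only the groups compared, a replicate block and leaving out each library were tried. Log2 CPM for correlations used a prior count of 2.

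Members and lists were chosen with earlier results of these data known. All members were named, with up to 4 genes per list by smallest p (pemafibrate in Ad-CTRL, Ad-FAT10 under CMC), Ubd, Ppara, markers, and the 3 genes most like each member. Part of these is printed.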

Additional observations from a re-analysis of the deposited data

Results flagged for a closer look

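In 5 of the 51 sets of 4 values examined, 1 liver lay far from the other 3, with a gap to the next liver above Dixon's 95% critical value. Chance gives about 1 in 20. Acot1 stood at 1299 CPM in Ad-CTRL Pema replicate 3, where the next highest liver had 1108. Acot12 stood at 106 CPM in Ad-CTRL CMC replicate 1, where the next lowest had 123. The other 3 come from the same liver, Ad-FAT10 Pema replicate 4, which had 234 CPM of Acot3 (next highest 177), 299.7 CPM of Acot4 (next 239) and a peroxisomal sum of 596 CPM (next 471). Acot3 and Acot4 are the largest terms of that sum, so the 3 are not independent.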

How the results depend on the processing

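Of 1089 alternative values for the 50 member changes, 1034 kept the direction and the side of the threshold, 2 lost the call, 14 gained one and 39 changed sign. All sign changes were in differences that were not called. The number of members called, over single libraries left out, was 8 to 8 and 8 to 9 for pemafibrate, 7 to 7 and 5 to 6 for Ad-FAT10, and 0 to 1 for the interaction, which also had 1 without the filter. In the interaction, DESeq2 called 116 genes and the fit without the filter 93, against 23, and fits without 1 library called 11 to 36; the cause was not tested. With library totals alone Acot8 under Pema turned to 0.13, Acadm under CMC, called at -0.27, to 0.0200 and the Acot13 interaction to 0.0442; without the filter the last was 0.00503. Left-out libraries moved Acot8 under CMC between -0.0290 and 0.164, Acot2 under Pema between -0.0862 and 0.109, and the interactions of Acot4 between -0.0931 and 0.205, Acot9 between -0.0587 and 0.128, Acot12 between -0.0348 and 0.0713 and Acot13 between -0.0801 and 0.0649. Compartment sums under Pema with library totals were 1172 CPM (cytosol) and 794 CPM (peroxisome) in Ad-CTRL and 969 CPM (cytosol) and 712 CPM (mitochondrion, against 552 CPM in Ad-CTRL) in Ad-FAT10 livers. The replicate block gave 8, 8, 7, 5 and 0 members called in the 5 comparisons and the Acot4 interaction -0.00487, and it changed no call of a member. The labels do not say if the replicate numbers pair the mice. Same-numbered libraries had correlations of -0.469 to 0.304, with 10 of 24 over 0.1, and 2 of 16 libraries correlated best with their own number. For replicates 1 to 4, Ad-CTRL Pema had 0.252, 0.201, 0.230 and 0.114 with Ad-FAT10 Pema, but -0.134, -0.0277, -0.113 and -0.309 with Ad-FAT10 CMC. Shared handling of same-numbered mice was not tested. A fit of 2 groups has no interaction. Depth limits Acot5, and Acot6 had 25 to 171 counts.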
